A study of Mus musculus with 10 samples.

Results

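The leukotriene and lipoxygenase pathway was examined in arthritic mouse synovium through 9 genes, of the 18128 genes that the array annotation gave a probe set of their own. The genes were chosen by symbol and not by a measured value, though earlier results of these data were known. They comprised 6 synthesis genes (Alox5, Alox5ap, Alox12, Alox15, Lta4h and Ltc4s) and 3 receptor genes (Ltb4r1, Cysltr1 and Cysltr2). The annotation tied 13 probe sets to these genes, and the probe set with the highest mean over the 10 arrays stood for each gene. All animals were male DBA/1J mice labelled 8 weeks old with collagen antibody-induced arthritis (CAIA), a model in which injected antibodies to type II collagen and a later dose of lipopolysaccharide inflame the joints. The antibody dose was 1 mg on day 8, the lipopolysaccharide dose 25 µg on day 11, and the mice were killed on day 12. The 5 vehicle mice were given corn oil by mouth, and the 5 maslinic acid mice were given maslinic acid, a triterpene from olives, in corn oil at 200 mg per kg daily. The arrayed mice were selected from larger groups by a criterion that is not given in the sources used here. Untreated mice were not analysed here, so that the comparison lies within arthritic animals.

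Leukotrienes are lipid mediators made from arachidonic acid. The enzyme 5-lipoxygenase (Alox5), helped by its activating protein (Alox5ap), makes the unstable leukotriene A4. Leukotriene A4 hydrolase (Lta4h) turns it into the leukocyte attractant leukotriene B4, and leukotriene C4 synthase (Ltc4s) turns it into the first of the cysteinyl leukotrienes. Leukotriene B4 acts on the receptor BLT1 (Ltb4r1), a route of neutrophil entry into inflamed mouse joints, while cysteinyl leukotrienes act on Cysltr1 and Cysltr2. The platelet 12-lipoxygenase (Alox12) and the 12/15-lipoxygenase of mouse macrophages and eosinophils (Alox15) make hydroxy fatty acids and precursors of mediators that help inflammation to resolve.

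Each probe set carries, per array, a deposited score of unknown scale with 6 decimals. The range over all arrays was under 0.001 for 93.5% of probe sets. Values per array are therefore given below in steps of 1e-06 above the lowest of the 10 arrays for that probe set. A difference in steps is no fold change and cannot be set against that of another gene. Group differences are given as Hedges' g, the mean with maslinic acid less the vehicle mean, divided by the pooled SD. Its 95% confidence interval follows in parentheses, with 5 arrays per group throughout. The number of arrays limits the precision. Vehicle replicates 3 and 5 stood apart, their limma array weights being 0.458 and 0.339, while the remaining 8 arrays had 0.857 to 2.01, and values without them are given in a paragraph of their own and beside single genes. The list of synovial fibroblast markers had 10 of 10 genes on the array, among them Prg4, the lubricin gene of the synovial lining, with a mean score of 11.55. Mean scores in that list ran from 6.49 to 13.0. In the list of skeletal muscle markers they ran from 6.87 to 13.26, so that muscle markers scored as high as synovial ones. The table gives no detection calls, so that a score alone does not show whether a gene was expressed.

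On the mouse genome GRCm38.p6 the genes lie on autosomes, except Cysltr1 on the X chromosome. Alox12 (chr11:70241457-70255380) and Alox15 (chr11:70344147-70390538) lie close together, with Ltc4s (chr11:50236461-50238532) on the same chromosome. Ltb4r1 (chr14:55765962-55768492) and Cysltr2 (chr14:73025672-73049114) share chromosome 14. Alox5 (chr6:116410071-116461178), Alox5ap (chr5:149265004-149288153), Lta4h (chr10:93453396-93484896) and Cysltr1 (chrX:106576509-106603679) lie apart. Promoter sequence was found in RefSeq (GRCm38.p6) for 6 of the 9 genes. The 250 bases before the transcript start are shown for Alox5, Alox12, Lta4h and Ltb4r1, because the values of these 4 genes varied together between mice, as described further on. Each sequence runs 5′ to 3′ on the strand of the gene and ends at the base before the start. Capitals mark the GC box GGGCGG or its reverse complement, the letters that Sp1 family factors bind.
Alox5 (chr6:116461179-116461428, minus strand): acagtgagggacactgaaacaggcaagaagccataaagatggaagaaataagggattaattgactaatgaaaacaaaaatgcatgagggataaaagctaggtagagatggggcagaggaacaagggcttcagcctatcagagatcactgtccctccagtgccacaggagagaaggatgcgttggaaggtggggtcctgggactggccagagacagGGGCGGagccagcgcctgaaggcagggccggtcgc
Alox12 (chr11:70255371-70255620, minus strand): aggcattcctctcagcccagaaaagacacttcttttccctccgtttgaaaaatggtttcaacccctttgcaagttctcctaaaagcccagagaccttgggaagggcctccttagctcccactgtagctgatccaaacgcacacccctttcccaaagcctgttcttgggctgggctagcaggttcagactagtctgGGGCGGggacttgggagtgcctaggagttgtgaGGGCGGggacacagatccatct
Lta4h (chr10:93453146-93453395, plus strand): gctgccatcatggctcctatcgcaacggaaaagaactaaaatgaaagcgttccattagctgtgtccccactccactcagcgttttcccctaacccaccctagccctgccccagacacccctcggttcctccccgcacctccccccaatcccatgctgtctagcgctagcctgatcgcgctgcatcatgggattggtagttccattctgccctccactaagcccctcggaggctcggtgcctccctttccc
Ltb4r1 (chr14:55765712-55765961, plus strand): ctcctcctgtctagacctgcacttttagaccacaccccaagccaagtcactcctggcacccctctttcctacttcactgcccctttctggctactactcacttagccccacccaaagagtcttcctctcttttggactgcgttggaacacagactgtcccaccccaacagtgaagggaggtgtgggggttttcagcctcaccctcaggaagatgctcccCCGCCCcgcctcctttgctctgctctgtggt
A GC box was found in 3 of the 6 promoters, those of Alox5 (1), Alox12 (2) and Ltb4r1 (1), and in 32.7% of all 32851 promoter windows of this length. The core GAGGAA of the myeloid factor PU.1 was found in 4 of 6 (Alox5, Alox12, Lta4h and Ltb4r1) and in 23.3% of all windows. CCAAT was found in 2 of 6 (Lta4h and Cysltr2) against 33.8%, the glucocorticoid receptor half-site TGTTCT in 1 of 6 (Alox12) against 16.1%, and TATAAA in 0 of 6 against 12.4%. Both strands were searched, and no match of one motif overlapped a match of another in the 6 windows. A match describes the letters of the window and is no evidence of binding.

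The question was whether maslinic acid went with a different level of leukotriene genes in inflamed synovium. Mean values were lower with maslinic acid for 8 of the 9 genes, Ltc4s being the exception, but none passed the test. With limma and Benjamini-Hochberg adjustment over all 39993 probe sets, 0 of the 9 had an adjusted p under 0.05, as did 0% of all genes. At an unadjusted limma p under 0.05 there was 1 of 9, Cysltr2, which had lower values. Among all genes 8.83% reached that level, 4.54% with lower and 4.29% with higher values, so that 1 of 9 is near the background. The exact Wilcoxon test gave 0 of 9 after adjustment and 1 of 9 before it, against 6.85% of all probe sets before adjustment. The groups overlapped for all 9 genes, while they did not overlap for 1.38% of all genes (0.734% with lower values). The median g over the 9 genes was -1.04, beside 0.0 over all genes, of which 48.3% had lower and 47.9% higher means. Of the 9 genes, 8 had 10 distinct values over the arrays, and over the 6743 genes of that kind the median g was 0.23, with lower means in 39.6%. Of these 8 members 0 reached an unadjusted limma p under 0.05 with lower values and 0 had groups that did not overlap, against 4.67% and 1.17% of the 6743 genes. Values of several of the 9 genes were correlated, so that 8 of 9 is not a count of independent genes. Tissue was measured in bulk, where fewer cells of a type and less RNA per cell cannot be told apart.

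**Figure D1:**
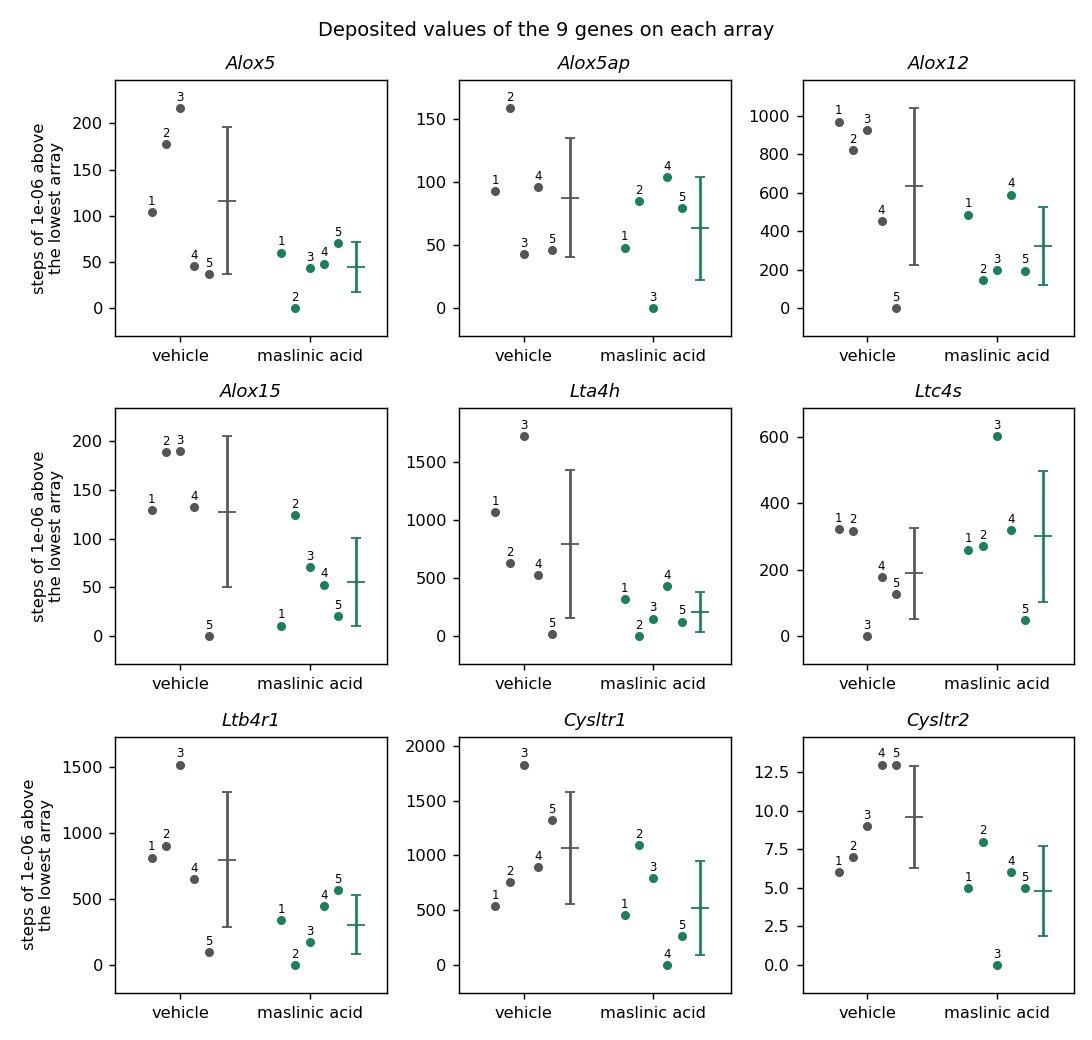
Deposited values of the 9 genes, in steps of 1e-06 above the lowest array of that gene (vertical axis, with its own range in each panel), on the 5 vehicle and 5 maslinic acid arrays. Numbers are replicate numbers, and the bars to the right of each group give the mean and SD. Vehicle replicate 5 has the lowest vehicle value for Alox5, Alox12, Alox15, Lta4h and Ltb4r1, and the groups overlap in every panel.

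The route to leukotriene B4 runs through Alox5, Alox5ap and Lta4h. Alox5 (1441962_at, mean score 8.16) lay at 104, 178, 217, 45 and 37 steps on vehicle arrays 1 to 5 and at 60, 0, 43, 48 and 70 steps on maslinic acid arrays 1 to 5. Vehicle replicates 1, 2 and 3 lay above every maslinic acid array, and vehicle replicates 4 and 5 lay among them. The means were 116.2 ± 79.8 and 44.2 ± 26.9 steps (SD, n = 5 each), with g = -1.09 (95% CI -2.30 to 0.17, limma adjusted p = 0.584, exact permutation p = 0.111, two-sided).

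Alox5ap (1452016_at, mean score 11.56), the partner that presents arachidonic acid to 5-lipoxygenase, differed less. It lay at 93, 159, 43, 96 and 46 steps on the vehicle arrays and at 48, 85, 0, 104 and 79 steps on the maslinic acid arrays. Apart from vehicle replicate 2, which was highest, and maslinic acid replicate 3, which was lowest, the groups covered much the same range. The difference had g = -0.50 (-1.63 to 0.66, adjusted p = 0.796 in limma, exact permutation p = 0.413), and was -0.15 without vehicle replicate 2 and -0.19 without maslinic acid replicate 3.

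Lta4h (1434790_a_at, mean score 10.22), the hydrolase that makes leukotriene B4, lay at 1069, 633, 1723, 527 and 20 steps in vehicle mice and at 320, 0, 153, 436 and 128 steps in maslinic acid mice. Vehicle replicates 1 to 4 lay above all 5 maslinic acid arrays, and vehicle replicate 5 lay above only 1 of them. The means were 794.4 ± 639.3 and 207.4 ± 171.2 steps (SD, n = 5 each), with g = -1.13 (-2.35 to 0.14, adjusted p = 0.580 in limma, exact permutation p = 0.0714). A further Lta4h probe set (1426807_at) had vehicle replicates 1 to 5 at 990, 823, 3537, 750 and 649 steps, and maslinic acid replicates at 420, 577, 350, 727 and 0 steps (g = -0.95, -2.13 to 0.29, adjusted p = 0.625 in limma, exact permutation p = 0.0159). Only maslinic acid replicate 4 reached into the vehicle range there. Vehicle replicate 5 thus lay above the other maslinic acid arrays, unlike in the first probe set. The third Lta4h probe set (1453528_at) held 4 distinct values between 0 and 3 steps and showed no difference that rounding would resolve (g = 0.15, -0.98 to 1.26).

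Alox12 and Alox15, the member lipoxygenases outside the leukotriene route, had lower means too. Alox12 (1422699_at, mean score 7.92), the platelet enzyme, lay at 970, 820, 927, 452 and 0 steps in vehicle mice and at 486, 145, 196, 590 and 194 steps in maslinic acid mice. Vehicle replicates 1, 2 and 3 were higher than every maslinic acid array, while vehicle replicate 5 was the lowest of all 10. The difference had g = -0.87 (-2.04 to 0.35, adjusted p = 0.645 in limma, exact permutation p = 0.151). A further Alox12 probe set (1422700_at) had g = -1.08 (-2.29 to 0.18, adjusted p = 0.587 in limma, exact permutation p = 0.0635).

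Alox15 (1420338_at, mean score 7.54), the mouse 12/15-lipoxygenase, lay at 129, 188, 189, 132 and 0 steps in vehicle mice and at 11, 124, 71, 53 and 21 steps in maslinic acid mice. As with Lta4h, vehicle replicates 1 to 4 lay above all maslinic acid arrays and vehicle replicate 5 did not. The means were 127.6 ± 77.0 and 56.0 ± 45.0 steps (SD, n = 5 each), with g = -1.02 (-2.22 to 0.22, adjusted p = 0.603 in limma, exact permutation p = 0.127).

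Ltc4s (1419692_a_at, mean score 7.19), which starts the cysteinyl branch, was the 1 gene with a higher mean. It lay at 323, 318, 0, 179 and 127 steps in vehicle mice and at 261, 271, 602, 320 and 49 steps in maslinic acid mice. Maslinic acid replicate 3 was highest and vehicle replicate 3 lowest, with the other arrays mixed. The difference had g = 0.59 (-0.58 to 1.73, adjusted p = 0.754 in limma, exact permutation p = 0.341). It was 0.25 without maslinic acid replicate 3, 0.35 without vehicle replicate 3, 0.15 with array weights and 0.20 after quantile normalization, and 1.05 without maslinic acid replicate 5.

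All 3 receptor genes had lower means. Ltb4r1 (1420407_at, mean score 8.08), the high-affinity receptor for leukotriene B4, lay at 812, 902, 1514, 650 and 96 steps in vehicle mice and at 337, 0, 173, 446 and 564 steps in maslinic acid mice. Vehicle replicates 1 to 4 lay above all maslinic acid arrays, and vehicle replicate 5 lay near the bottom. The means were 794.8 ± 509.5 and 304.0 ± 222.7 steps (SD, n = 5 each), with g = -1.13 (-2.34 to 0.14, adjusted p = 0.582 in limma, exact permutation p = 0.0794).

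Cysltr1 (1418944_at, mean score 6.86), a cysteinyl leukotriene receptor of leukocytes and smooth muscle, lay at 537, 758, 1830, 893 and 1320 steps in vehicle mice and at 455, 1092, 791, 0 and 263 steps in maslinic acid mice. Here vehicle replicates 3 and 5 were the 2 highest arrays, unlike in the genes above, and the groups were mixed between 537 and 1092 steps. The difference had g = -1.04 (-2.24 to 0.21, adjusted p = 0.597 in limma, exact permutation p = 0.111), and a further Cysltr1 probe set (1449282_at) had g = -0.64 (-1.78 to 0.54). Cysltr2 (1421642_a_at, mean score 6.32), the other cysteinyl leukotriene receptor, lay at 6, 7, 9, 13 and 13 steps in vehicle mice and at 5, 8, 0, 6 and 5 steps in maslinic acid mice. Its g was -1.39 (-2.66 to -0.05, unadjusted limma p = 0.0377 and adjusted p = 0.531, exact permutation p = 0.0556), but the whole range was 13 rounding steps with 7 distinct values, and after quantile normalization g was 0.25. Its unadjusted p was also over 0.05 after median centring (g = -0.45), with array weights and without any of vehicle replicates 3, 4 and 5 or maslinic acid replicates 1, 3 and 5.

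**Figure D2:**
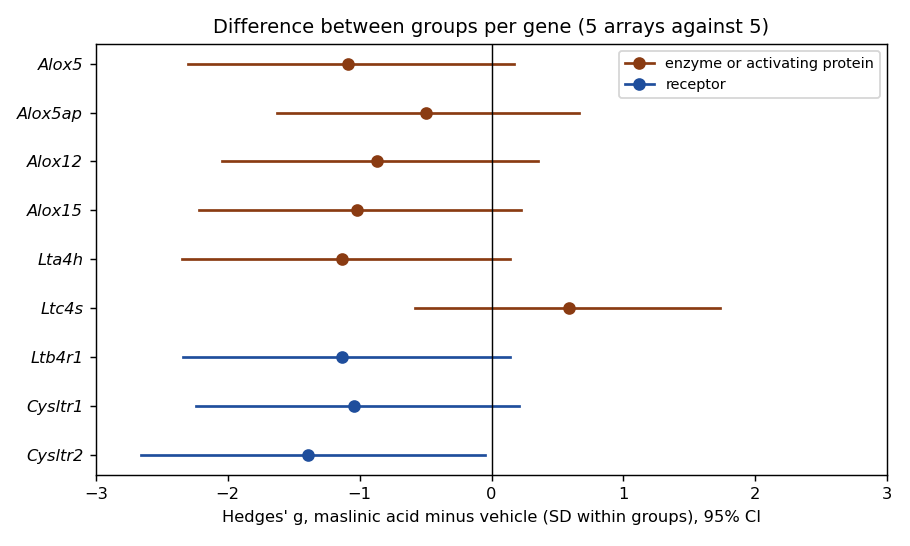
Hedges' g per gene, the maslinic acid mean less the vehicle mean over the pooled SD (horizontal axis), with 95% confidence intervals, for 6 synthesis genes (brown) and 3 receptor genes (blue). The point for Ltc4s, at 0.59, is the 1 above 0, and the intervals of 8 genes include 0, the exception being Cysltr2.

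The order of synthesis genes and receptors by the size of their differences depended on single arrays. The median g was -0.95 over the 6 synthesis genes, of which 5 were lower, and -1.13 over the 3 receptors, of which 3 were lower. Without vehicle replicate 5 the medians were -1.67 and -1.16, and without vehicle replicates 3 and 5 they were -1.46 and -1.03, so that the order turned. Genes are not replicates, so that no test was made between these medians. Upstream of both branches, Alox5 lay at -1.09 and Alox5ap at -0.50. In the leukotriene B4 branch Lta4h and Ltb4r1 each lay at -1.13. In the cysteinyl branch the synthase Ltc4s, at 0.59, and the receptors Cysltr1 and Cysltr2 lay on opposite sides of 0. The SD was larger in the vehicle group for 8 of the 9 genes (Ltc4s again excepted), as it was for 81.7% of the 6743 genes with 10 distinct values.

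Vehicle replicates 3 and 5 weighed on these values. Without both, 4 of the 9 genes had an unadjusted limma p under 0.05, all lower, against 4.61% of all genes, and 0 passed after adjustment. These were Lta4h (g = -2.15), Ltb4r1 (-2.14), Alox15 (-1.96) and Alox12 (-1.64), while Cysltr2, at -1.03, was no longer among them. Among the members that did not reach that level, Alox5ap moved from -0.50 to -1.16, Cysltr1 from -1.04 to -0.50 and Ltc4s from 0.59 to 0.14. Without vehicle replicate 5 alone there were 5 of 9, the same 4 genes and Alox5 (g = -1.51), against 4.72% of all genes with lower values. With limma's array weights there were 4, the same 4 genes, against 4.99%. Without vehicle replicate 3 alone, or without maslinic acid replicate 1, 3 or 5, the count was 0, against 6.54% to 8.51% of all probe sets in either direction. Without maslinic acid replicate 2 the count was 2, against 8.71%. Nothing in the labels sets vehicle replicate 5 apart, and these settings were chosen with earlier results of the same arrays known.

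Alox5, Alox12, Lta4h and Ltb4r1 varied together between mice. Of the 36 pairs among the 9 genes, 6 passed a permutation test of Pearson's r over the 10 arrays after Benjamini-Hochberg adjustment, and these were the 6 pairs that the 4 genes form. Lta4h and Ltb4r1 had r = 0.93 (permutation p = 0.00022, adjusted p = 0.00264) and Spearman's rho = 0.92 (permutation p = 0.0005, adjusted p = 0.00684), with r = 0.86 without vehicle replicates 1 and 3, the 2 arrays farthest from the median of Lta4h. The enzyme that makes leukotriene B4 and its receptor were thus high and low in the same mice. Alox5 and Ltb4r1 had r = 0.92 (permutation p = 5e-05, adjusted p = 0.0009) and rho = 0.92 (permutation p = 0.00057, adjusted p = 0.00684), with r = 0.83 without vehicle replicates 2 and 3. Alox12 and Lta4h had r = 0.87 (permutation p = 3e-05, adjusted p = 0.0009) and rho = 0.94 (permutation p = 0.00028, adjusted p = 0.00684), with r = 0.86 without vehicle replicates 1 and 5.

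The other 3 pairs of these genes, Alox5 with Lta4h, Alox12 with Ltb4r1 and Alox5 with Alox12, had r of 0.84, 0.83 and 0.78 (permutation p = 0.00646, 0.00178 and 0.00493, adjusted p = 0.0388, 0.0160 and 0.0355) and rho of 0.82 each. Without the 2 arrays farthest from the median of the first gene their r was 0.77, 0.85 and 0.72. Part of each r can come from the group means, and with each gene centred on its group mean the r of the 6 pairs ran from 0.71 to 0.90. In that form 1 of 36 pairs passed the exact permutation test within groups after adjustment, Alox5 with Ltb4r1 (r = 0.89, adjusted p = 0.0100). Without vehicle replicates 3 and 5 the r of the 6 pairs ran from 0.63 to 0.95, and 1 pair passed, Alox12 with Lta4h (r = 0.95, permutation p = 0.00048, adjusted p = 0.0173). Alox5ap and its partner Alox5 had r = 0.24 (permutation p = 0.490) and rho = 0.18 (permutation p = 0.632), with r = 0.15 without vehicle replicates 2 and 3. That value depended on vehicle replicate 3, without which r was 0.62 (permutation p = 0.0859, adjusted p = 0.281). Ltc4s had negative r with all 8 other genes, from -0.65 with Cysltr2 to -0.02 with Alox15, and none of these passed after adjustment. These signs did not all hold. By rho they were positive with Alox5ap (0.26), Alox12 (0.24), Lta4h (0.04) and Alox15 (0.03) and negative with the others. Without vehicle replicate 3, r was positive with Alox15 (0.29), Alox12 (0.22), Lta4h (0.16) and Alox5 (0.06) and negative with the others. With Cysltr2 rho was -0.49 (permutation p = 0.153), and r was -0.33 without vehicle replicate 3 and maslinic acid replicate 3.

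**Figure D3:**
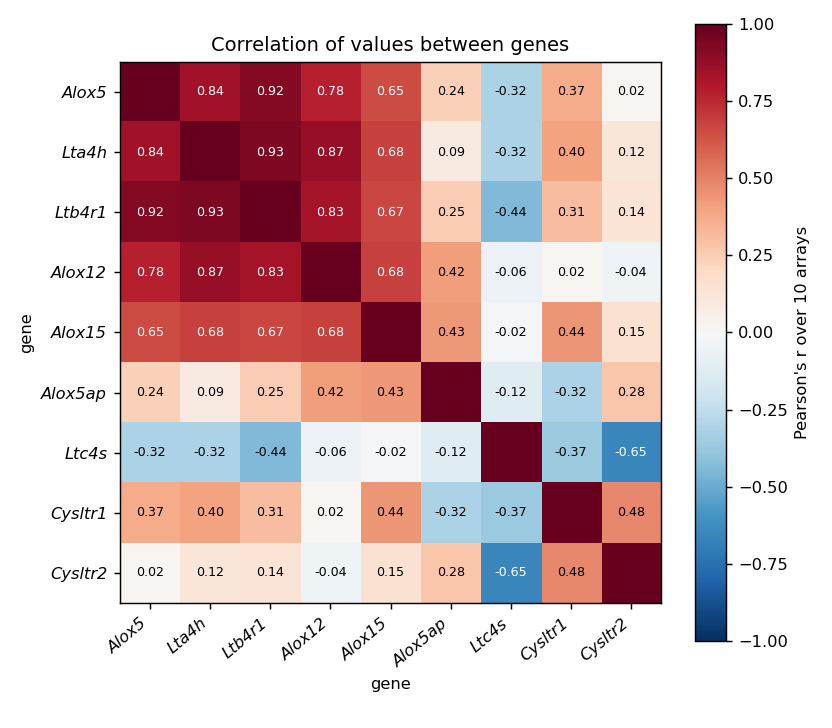
Pearson's r over the 10 arrays (colour and printed value) for each pair of the 9 genes (both axes), with the arrays of both groups pooled. The block at the upper left holds Alox5, Lta4h, Ltb4r1 and Alox12 with r between 0.78 and 0.93, and Alox15 follows with 0.65 to 0.68. The row of Ltc4s is negative throughout, which held neither by rho nor without vehicle replicate 3.

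The genes most like each member were sought among 6735 other genes with 10 distinct values, by Pearson's r over the 10 arrays as a description. The gene most like Alox12 was Itga2b, the platelet integrin subunit alpha IIb (r = 0.985), followed by Ceacam1, an adhesion receptor (0.982), and Unc13d, a factor of granule release (0.961). Alox5 was closest to N4bp2 (0.960), Msra (0.953) and Rap1gap2 (0.949). Ltb4r1 was closest to Stk10, a kinase of lymphoid and other blood cells (0.975), Slc39a11 (0.972) and Vsir (0.961), and Lta4h to Tspoap1 (0.968), Tbc1d31 (0.960) and Dna2 (0.953). The most similar genes of Ltc4s were Axl, a receptor kinase for uptake of dying cells (0.939), Gas7 (0.929) and Sulf1, an enzyme that edits heparan sulfate (0.926). Cysltr1 was closest to Dynlt1f (0.962), C1galt1c1 (0.952) and Bclaf3 (0.945), and Alox15 to Hmga2-ps1 (0.913), Entpd1 (0.882) and Bin3 (0.869). Alox5ap had no gene above 0.9, and its closest were Tmem51 (0.868), Gimap1 (0.857) and Nt5c (0.828), whereas 41 genes exceeded 0.9 with Alox12, 50 with Lta4h and 55 with Ltb4r1.

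Most markers of neutrophils and platelets had lower means with maslinic acid as well. Macrophage and monocyte markers had higher means in 7 of 10 (median g = 0.22). Among all genes 48.3% had lower and 47.9% higher means. Of the 6743 genes with 10 distinct values, 39.6% had lower and 60.2% higher means (median g = 0.23). The macrophage and monocyte list is thus near that background. Neutrophil markers had lower means with maslinic acid in 9 of 10 (median g = -0.75). At an unadjusted limma p under 0.05 there were 3, all lower, against 4.54% of all genes, and 0 after adjustment. Their score, the mean z-score of the list on an array, ran from -0.0828 to 1.28 in vehicle and from -0.530 to -0.0801 in maslinic acid mice. Lowest in p were Cxcr2, a chemokine receptor of neutrophils (g = -2.71, -4.39 to -0.96, adjusted p = 0.418 in limma), whose groups did not overlap, and Csf3r, the G-CSF receptor (-1.89, -3.30 to -0.41, adjusted p = 0.476). The granule gene Mmp9 was the 1 neutrophil marker with a higher mean. S100a8 and S100a9, abundant in neutrophils, held only 2 distinct values each.

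Platelet markers had lower means in 7 of 8 (median g = -1.12), of which 3 reached an unadjusted limma p under 0.05, against 4.54% of all genes, and 0 passed after adjustment. Their score ran from -0.399 to 1.46 in vehicle and from -1.25 to 0.147 in maslinic acid mice. Lowest in p were Gp6, the platelet collagen receptor (g = -1.71, -3.06 to -0.29, adjusted p = 0.488 in limma), and Ppbp, a platelet chemokine (-1.62, -2.95 to -0.22, adjusted p = 0.488). No marker of either list was listed at 0.

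Of the 90 pairs of a member and a marker list, 6 passed the permutation test of r after adjustment over the 90. Alox5 followed the neutrophil score (r = 0.93, permutation p = 0.0008, adjusted p = 0.0180), with rho = 0.75 (permutation p = 0.0179, adjusted p = 0.202) and r = 0.58 without vehicle replicates 2 and 3 (permutation p = 0.133). Ltb4r1 followed it as well (r = 0.91, permutation p = 0.00067, adjusted p = 0.0180), with rho = 0.78 (permutation p = 0.0113, adjusted p = 0.145) and r = 0.66 without the same 2 arrays (permutation p = 0.0809). Both relations were thus weaker without vehicle replicates 2 and 3. Without vehicle replicates 3 and 5, r was 0.90 for Alox5 and 0.90 for Ltb4r1. With genes centred on group means it was 0.90 and 0.86, and none of these passed after adjustment. Alox12 followed the platelet score (r = 0.88, permutation p = 0.00077, adjusted p = 0.0180), with rho = 0.87 (permutation p = 0.00225, adjusted p = 0.0675) and r = 0.91 without vehicle replicate 3 and maslinic acid replicate 3 (permutation p = 0.00211). For Alox12 the relation thus did not rest on the 2 most distant arrays, and with genes centred on group means r was 0.85. Itga2b, the gene most like Alox12, is 1 of the 8 genes averaged in the platelet score, so that its r is no separate evidence of this relation. The platelet score also passed with Lta4h (r = 0.88, adjusted p = 0.0180), Alox5 (0.85, adjusted p = 0.0234) and Ltb4r1 (0.85, adjusted p = 0.0288), all by permutation, with rho of 0.87, 0.82 and 0.79 and r of 0.86, 0.82 and 0.72 without the same 2 arrays as for Alox12. The other members did not pass with either score, Alox5ap having r = 0.24 and 0.37 and Ltc4s -0.53 and -0.41 with the neutrophil and platelet scores. By rho, 0 of 90 pairs passed after adjustment. The part of neutrophils and platelets in the group differences was not tested.

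**Figure D4:**
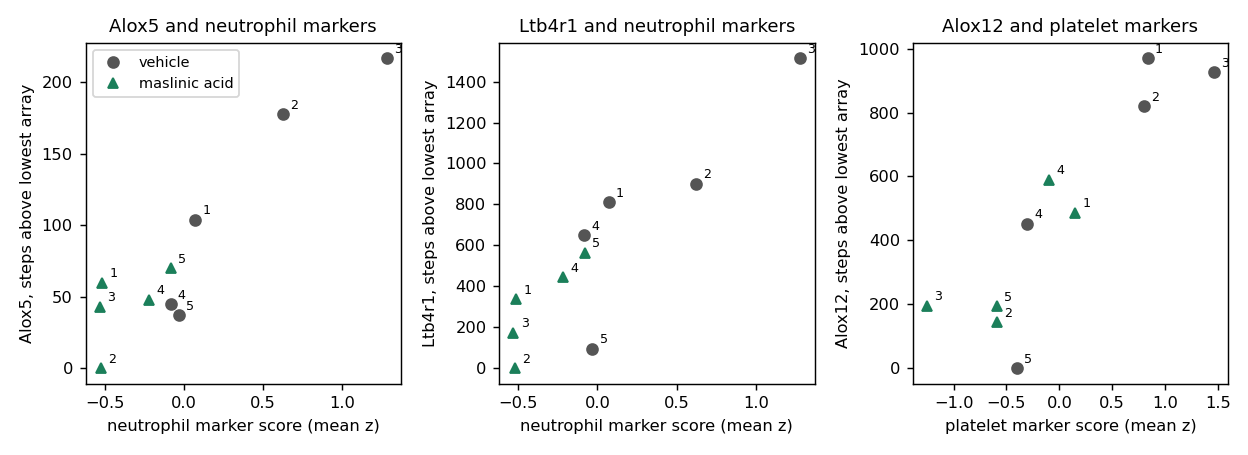
Values of Alox5 and Ltb4r1 against the neutrophil marker score and of Alox12 against the platelet marker score (horizontal axes, mean z-score of the list), in steps of 1e-06 above the lowest array (vertical axes), with replicate numbers beside 5 vehicle arrays (circles) and 5 maslinic acid arrays (triangles). Vehicle replicate 3 is at the far right of all 3 panels, and r is 0.93, 0.91 and 0.88.

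Other genes of the pathway, grouped by role, showed no common direction. Of 38 listed genes 35 were measured, and 17 were lower, 17 higher and 1 without difference (median g = 0.0, as over all genes). At an unadjusted limma p under 0.05 there were 3 of 35 (8.57%, against 8.83% of all genes), 1 lower and 2 higher, and 0 after adjustment. The lower gene was Pla2g4a, the cytosolic phospholipase A2 that releases arachidonic acid for all of these enzymes. It lay at 29, 43, 39, 18 and 40 steps in vehicle mice and at 1, 34, 0, 2 and 3 steps in maslinic acid mice, with maslinic acid replicate 2 alone inside the vehicle range. Its g was -1.85 (-3.24 to -0.38, adjusted p = 0.483 in limma, exact permutation p = 0.0238), and -3.67 without maslinic acid replicate 2. It was -0.64 after median centring and -1.37 without vehicle replicates 3 and 5, where the unadjusted p was over 0.05. The secreted phospholipase Pla2g5 was at 0.93 (-0.30 to 2.11).

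The higher genes were Dpep1 and Gpr31b. Dpep1, a dipeptidase that cleaves leukotriene D4, lay at 618, 636, 0, 1281 and 83 steps in vehicle mice and at 749, 1764, 1274, 1861 and 1128 steps in maslinic acid mice, with only vehicle replicate 4 inside the maslinic acid range (g = 1.54, 0.16 to 2.84, adjusted p = 0.496 in limma). Gpr31b, whose human counterpart GPR31 binds 12-HETE, lay at 2071, 2029, 0, 2176 and 1784 steps in vehicle mice and at 2772, 2335, 2782, 2673 and 2463 steps in maslinic acid mice. Its groups did not overlap, and vehicle replicate 3 lay far below the rest (g = 1.36, 0.03 to 2.62, adjusted p = 0.532 in limma, exact permutation p = 0.00794, the smallest that 252 assignments allow). For both genes the unadjusted p was over 0.05 when certain single arrays were left out, with g of 1.31 for Dpep1 without vehicle replicate 3 or 5 or maslinic acid replicate 2 or 4, and g of 1.20 to 1.31 for Gpr31b without vehicle replicate 5 or maslinic acid replicate 1, 3, 4 or 5. For Dpep1 it was also over 0.05 after quantile normalization (g = 0.99), with array weights (1.16) and without vehicle replicates 3 and 5 (1.02), and for Gpr31b with the replicate block (1.11). Without vehicle replicate 3, the low array, Gpr31b was at 2.83, and without vehicle replicates 3 and 5 at 2.66.

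Among enzymes that inactivate leukotriene B4, Cyp4f18, the omega-hydroxylase of mouse neutrophils, was at -1.24 (-2.48 to 0.06) and Ptgr1, a leukotriene B4 dehydrogenase, at -1.22 (-2.46 to 0.07), neither at an unadjusted p under 0.05. Another Cyp4f18 probe set, the one with more distinct values, was at 0.34. Mgst2, a microsomal transferase related to Ltc4s, lay at 9339, 10276, 51240, 8997 and 26618 steps in vehicle mice and at 2186, 8881, 0, 5146 and 4919 steps in maslinic acid mice. Its groups did not overlap, with the lowest vehicle array 116 steps above the highest maslinic acid array (g = -1.17, -2.40 to 0.11, adjusted p = 0.571 in limma, exact permutation p = 0.00794). Fpr2, a receptor for lipoxin A4 and formyl peptides, was at -1.16 (-2.38 to 0.12) and at 0.93 after quantile normalization. The exporter Abcc1 was at 0.65, the peroxidase Gpx4 at -0.87 and the 5-lipoxygenase partner Cotl1 at -0.75. Dpep3 (0.90), Alox12e (-1.03) and Alox8 (1.21) spanned 8 steps or fewer over all arrays.

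**Figure D5:**
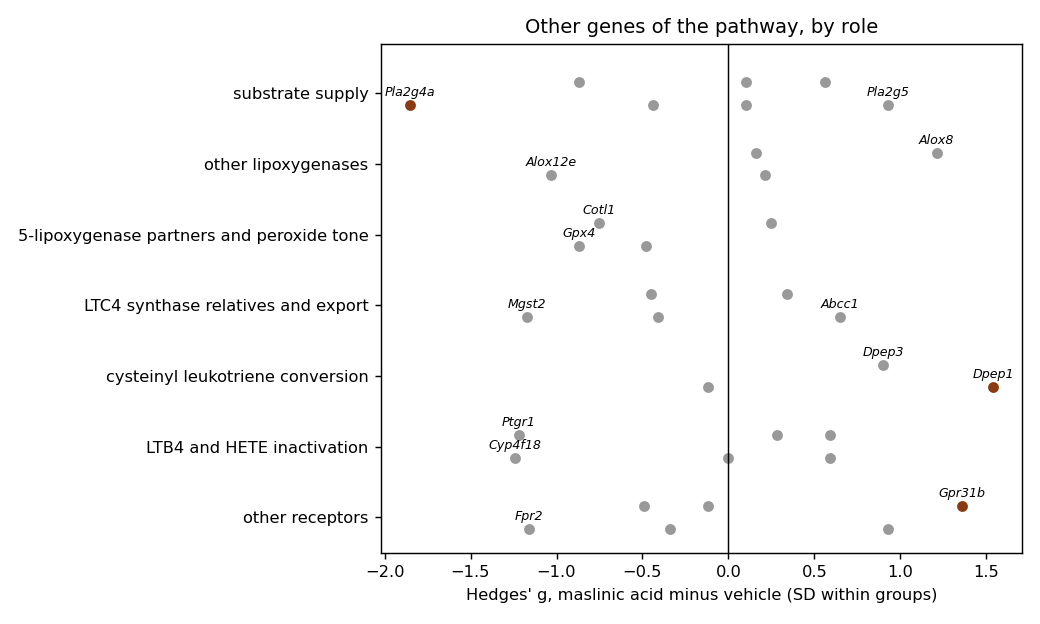
Hedges' g, the maslinic acid mean less the vehicle mean over the pooled SD (horizontal axis), for 35 other genes of the pathway in 7 roles (vertical axis). Brown points had an unadjusted limma p under 0.05 (Pla2g4a, Dpep1 and Gpr31b), grey points did not, and names mark the 2 genes of lowest p in each role.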

How the data were processed

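Synovial RNA of a hind leg (100 ng per mouse, per the labels' protocols) was hybridised to 10 Affymetrix mouse arrays. The value deposited by the authors for each probe set is named a score here. R 3.2.1 is the tool named, per the submitters' processing notes. How background, normalization and probe summary were handled is not given in the sources used here. Of 39993 probe sets, 34202 named 1 gene, 931 several and 4860 none. No 2 arrays were alike beyond rounding, with at most 11.1% of values identical. The labels give no batch, and replicates are labelled biological.

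Scores were tested as deposited with limma 3.58.1 in R 4.3.3 (lmFit, eBayes, no covariate, no filter), two-sided, adjusted over all probe sets at 0.05. Python 3.11.15 with scipy 1.17.1 gave confidence intervals from the noncentral t distribution, exact permutation p-values over 252 assignments and correlations with 100000 permutations. On simulated data of this comparison (39993 probe sets) limma recovered, of 50 probe sets per size, 10% shifted by 2 SD, 66% shifted by 4 SD and 96% shifted by 6 SD. It made 9 false calls.

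The members, lists and settings were chosen with earlier results of these data known. Named were all members, the 2 relatives of lowest p per role and any under an unadjusted p of 0.05, the 3 genes most similar to each member with 10 distinct values, and the 2 markers of lowest p of the lists described. Prg4, Mmp9, S100a8, S100a9 and Ccr2 were added after their values were seen. Marker lists covered neutrophils, macrophages with monocytes, mast cells, eosinophils, platelets, keratinocytes, synovial fibroblasts, muscle, endothelium and cartilage. Alternatives were the replicate block, quantile normalization, median centring, array weights, trended robust eBayes, a level filter, a filter on distinct values, other probe set rules, the exact Wilcoxon test and arrays left out. For correlations, leaving out vehicle replicate 3 alone and centring on group means were added after seeing the data.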

Additional observations from a re-analysis of the deposited data

Results flagged for a closer look

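In 5 of 46 combinations of a named pathway gene and a group, 1 array lay far from the other 4 by Dixon's criterion, which chance alone meets in about 1 in 20 groups. None of the 9 members was among them. Pla2g4a was at 34 steps on maslinic acid array 2 and at 0 to 3 steps on the others of that group. Ptgr1 was at 9437 steps on vehicle array 3 against 1730 to 3536 on the other vehicle arrays, and Gpr31b was at 0 steps there against 1784 to 2176. Alox8, with 2 distinct values in all, was at 1 step on vehicle array 2 against 0 on the others, and at 0 on maslinic acid array 5 against 1 on the others, which is the last decimal of the table.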

How the results depend on the processing

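The direction of 8 lower members of 9 held with every array left out in turn, with the replicate block, array weights, median centring, other probe set rules and without vehicle replicates 3 and 5. It was 6 lower after quantile normalization, where Cysltr2 was at 0.25 and Alox5ap had 1 value on all arrays, and 7 of those left by the filters on level and on distinct values, which drop Cysltr2. Across all settings 0 members passed. Members at an unadjusted p under 0.05 numbered 0 after median centring, 0 above the median level and 0 with 10 distinct values required, 4 with array weights, 4 without vehicle replicates 3 and 5, and 0 to 5 without single arrays. The 35 relatives numbered 5 in the exact Wilcoxon test and 2 to 8 without single arrays (8 without vehicle replicate 1 or 4, 5 without vehicle replicate 3). Of all probe sets 6.85% reached that level in the exact Wilcoxon test and 6.54% to 11.4% without single arrays. Probe sets passing numbered 8 after quantile normalization and 0 to 1 without single arrays (1 without maslinic acid replicate 1), and the share at an unadjusted p under 0.05 was 9.04%, against 5.03% after quantile normalization and 1.84% after median centring. These scalings moved the median g of all genes to -0.27 and -0.39. Signs turned for Alox12e (0.23), Abcc1 (-0.89) and Fpr2 (0.93) after quantile normalization, for Alox8 (-0.39) and Dpep3 (-0.37) after median centring, for Abcc1 (-0.10) without vehicle replicates 3 and 5, and for Cyp4f18 (0.34) with the probe set of most distinct values. Causes were not tested. Pairs of members passing fell from 6 to 1 without the 2 farthest arrays, 1 without vehicle replicates 3 and 5, 2 without vehicle replicate 3, and 1 with group means removed. Pairs with marker lists fell from 6 to 0 by rho and to 0 in each of these settings. Same-numbered arrays deviated together (r over 0.1) in 2 of 5 pairs, those of replicates 1 (r = 0.35) and 4 (r = 0.34). The labels give no pairing, and these values, which were not tested, cannot settle whether the numbers pair the mice. With the replicate block 1 member (Alox15, -1.42, with Cysltr2 at -1.21) reached an unadjusted p under 0.05, and 7.57% of probe sets did.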

Other observations

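Mast cells and eosinophils are the classical sources of cysteinyl leukotrienes. All 5 measured eosinophil markers had lower means with maslinic acid (median g = -0.77, from -0.88 to -0.62), against 48.3% of all genes. Of these markers 0 reached an unadjusted limma p under 0.05. Their score ran from -0.593 to 1.51 in vehicle and from -1.11 to 0.179 in maslinic acid mice. Cysltr1 had r = 0.81 with it (permutation p = 0.00453, adjusted p = 0.0582), with rho = 0.73 (permutation p = 0.0207, adjusted p = 0.207) and r = 0.44 without vehicle replicates 3 and 5, so that the relation rests on those arrays. Mast cell markers were lower in 5 of 9 (median g = -0.02), 1 of them at an unadjusted limma p under 0.05, against 4.54% of all genes with lower values. Cysltr2 had r = -0.80 with the synovial fibroblast score (permutation p = 0.00634, adjusted p = 0.0713), rho = -0.84 (permutation p = 0.00376, adjusted p = 0.0846) and r = -0.75 without vehicle replicate 3 and maslinic acid replicate 3. Ltc4s had r = 0.78 with the same score (permutation p = 0.00788, adjusted p = 0.0758), rho = 0.66 (permutation p = 0.0442, adjusted p = 0.361) and r = 0.35 without vehicle replicate 3 and maslinic acid replicate 3. With the endothelial score its rho was 0.90 (permutation p = 0.00072, adjusted p = 0.0648) and its r 0.73 (permutation p = 0.0145, adjusted p = 0.119), and r was 0.73 without vehicle replicates 3 and 5. None of these 4 relations passed after adjustment over the 90.

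Of the remaining lists, synovial fibroblast markers had higher means in 10 of 10 (median g = 0.40), muscle markers in 10 of 10 (0.40) and cartilage markers in 6 of 6 (0.53). Endothelial markers had higher means in 5 of 6 (0.26), macrophage and monocyte markers in 7 of 10 (0.22) and keratinocyte markers in 4 of 8 (0.02). Higher means were found in 47.9% of all genes (median g = 0.0) and in 60.2% of genes with 10 distinct values (0.23). The medians of the endothelial and the macrophage and monocyte lists are near the latter. The macrophage and monocyte list had 1 marker at an unadjusted limma p under 0.05, with lower values, and the other 5 lists had 0. This marker was Ccr2 (g = -1.33, -2.59 to -0.01, adjusted p = 0.540 in limma, exact permutation p = 0.0159). Among all genes 8.83% reached that level, 4.54% with lower values.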
